A study of Mus musculus with 9 samples.

Results

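The genes described here are 53 protein-coding genes of nucleolar ribosome biogenesis, out of 54876 genes in the expression table. They were chosen by name, not by any measured value, though with earlier results of these data known. The choice took every Nop, Utp, Rrp and Nol gene with a number, the RNA polymerase I subunits Polr1a to Polr1e, and Ncl, Npm1, Fbl, Dkc1, Nolc1, Wdr12, Bop1, Pes1, Gnl3, Rrs1, Heatr1 and Ddx21. Expression was measured by RNA sequencing in MIN6 cells, an insulin-secreting line derived from an insulinoma of mice that carried a viral large T antigen under the insulin promoter, labelled as strain C57BL/6. The cells spent 24 h in low arginine (0.1 times the standard concentration), standard arginine (1 time) or high arginine (20 times). Each medium had 3 libraries, and all 9 came from the same line with no other agent named in the labels. Nothing states that the libraries of a medium were separate cultures, so p-values rest on a spread that may be technical alone.

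Ribosomes are assembled in the nucleolus. RNA polymerase I transcribes a long precursor of the ribosomal RNAs, small nucleolar ribonucleoproteins (snoRNPs) guide its methylation and pseudouridylation, and large sets of assembly factors fold and cut it into the precursors of the small and the large subunit. Because ribosome production uses much of the energy and amino acids of a growing cell, it is known to be tied to nutrient supply, and beta cells need high translation rates to make insulin.

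In low arginine, 28 of the 53 genes rose, 8 fell and 17 did not pass the test against standard arginine, while 30.3% of all genes tested rose and 31.9% fell. The proteins of the box C/D snoRNP, Nop56 and Nop58, rose most, about 3-fold, while their partner Fbl did not pass. Factors of the small subunit mostly rose, and factors of the large subunit split in both directions, with Rrs1 and Rrp15 higher and Nop53, Bop1, Pes1 and Rrp1 lower. In high arginine none of the 53 passed the test against standard arginine.

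The medium with low arginine changed most of the transcriptome, which sets the scale for these counts. Of 12300 genes whose FPKM (fragments per kilobase of gene, scaled to library size) reached 1 in 3 or more libraries, 62.2% were called in low against standard arginine, 30.3% higher and 31.9% lower. A gene was called at an adjusted p under 0.05 from limma on log2(FPKM + 1), with Benjamini-Hochberg adjustment over all genes tested. Libraries held 21550637 to 26300872 reads in genes. All 53 genes were among those tested, with at least 126 reads in every library, and Nol8 passed the filter only through its low arginine libraries. A gene kept in that way had to lie higher there, so the rise of Nol8 is a description only, and without it 27 of 52 genes rose and 8 fell in low arginine. Of 10 beta cell markers 9 were expressed, and their levels did not all move alike. Ins2 averaged 52070 FPKM in low, 50610 FPKM in standard and 47940 FPKM in high arginine, while Iapp and Mafa averaged 25380 and 310.3 FPKM in low, against 25260 and 246.6 FPKM in standard arginine. Besides Mafa, low arginine had the higher mean for 3 more transcription factors, Pdx1, Nkx6-1 and Neurod1. Their means were 373.4, 189.6 and 67.63 FPKM in low, against 149.6, 66.25 and 41.38 FPKM in standard arginine. Slc30a8 averaged 16.39 FPKM in low, 16.69 FPKM in standard and 22.33 FPKM in high arginine. Low arginine had the lower mean for G6pc2 and Ins1, at 399.1 and 1065 FPKM, against 716.1 and 1542 FPKM in standard arginine. The exception was Slc2a2, the glucose transporter of rodent beta cells, at no more than 0.0331 FPKM in any library. Among markers of other cells, the delta and PP cell list summed to 8718 to 11310 FPKM in low, 5434 to 6207 FPKM in standard and 5721 to 5913 FPKM in high arginine, nearly all of it Sst. The alpha cell list, nearly all Ttr, summed to 260.3 to 340.8 FPKM in low, 890.3 to 991.3 FPKM in standard and 891.5 to 900.6 FPKM in high arginine. The acinar, duct, fibroblast, endothelial and immune lists never summed above 0.537 FPKM in a library. The part of these lists in the results below was not tested. In RNA from whole cultures, fewer cells of a kind and less RNA per cell cannot be told apart.

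RefSeq promoters of build GRCm38.p6, 250 bases before to 50 bases after a gene's start, were at hand for 41 of the 53 genes, 48 promoters in all. Printed here on the gene's own strand are 5 of them, namely those of the pair with the largest rises, Nop58 (chr1:59684756-59685055, plus strand) and Nop56 (chr2:130274162-130274461, plus strand), and 3 that hold an E-box. The E-box is the element CACGTG bound by Myc, a known driver of ribosome production, and it is set in capitals. The 3 are Nop2 of the large subunit (chr6:125131633-125131932, plus strand) and Utp18 of the small subunit (chr11:93885717-93886016, minus strand), which both rose in low arginine, and Pes1 of the large subunit (chr11:3963725-3964024, plus strand), which fell.
Nop58: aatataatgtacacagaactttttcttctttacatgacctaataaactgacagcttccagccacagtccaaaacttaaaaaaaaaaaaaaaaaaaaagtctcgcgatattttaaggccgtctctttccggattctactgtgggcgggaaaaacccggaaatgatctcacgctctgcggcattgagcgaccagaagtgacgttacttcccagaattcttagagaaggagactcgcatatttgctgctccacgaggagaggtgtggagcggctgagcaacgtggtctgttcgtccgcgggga
Nop56: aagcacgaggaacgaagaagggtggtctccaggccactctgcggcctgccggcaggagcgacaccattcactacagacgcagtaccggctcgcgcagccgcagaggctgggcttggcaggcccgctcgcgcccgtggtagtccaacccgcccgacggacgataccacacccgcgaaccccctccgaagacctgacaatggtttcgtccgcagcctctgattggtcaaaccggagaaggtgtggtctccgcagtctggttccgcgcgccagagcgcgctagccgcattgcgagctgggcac
Nop2: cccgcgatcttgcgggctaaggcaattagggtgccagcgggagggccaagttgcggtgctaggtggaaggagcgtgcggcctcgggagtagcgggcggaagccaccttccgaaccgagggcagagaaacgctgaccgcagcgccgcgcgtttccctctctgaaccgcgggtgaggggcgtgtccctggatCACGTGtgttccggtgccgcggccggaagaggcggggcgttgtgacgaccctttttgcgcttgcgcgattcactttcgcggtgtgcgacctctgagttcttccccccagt
Utp18: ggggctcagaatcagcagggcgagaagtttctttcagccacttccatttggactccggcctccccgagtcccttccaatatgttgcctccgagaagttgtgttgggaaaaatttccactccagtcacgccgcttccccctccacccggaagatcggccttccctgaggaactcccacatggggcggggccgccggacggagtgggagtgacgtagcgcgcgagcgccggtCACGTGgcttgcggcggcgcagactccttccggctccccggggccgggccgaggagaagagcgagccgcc
Pes1: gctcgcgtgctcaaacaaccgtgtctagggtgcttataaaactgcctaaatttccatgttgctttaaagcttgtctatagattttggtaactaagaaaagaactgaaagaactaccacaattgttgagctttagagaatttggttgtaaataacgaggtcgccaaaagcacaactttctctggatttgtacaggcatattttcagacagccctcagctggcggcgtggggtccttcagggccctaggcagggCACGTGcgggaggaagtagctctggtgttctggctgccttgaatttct

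The letters CACGTG, which read the same on both strands, were present in 8 of the 48 promoters (16.7%), against 2349 of 32851 promoters of all genes (7.15%). They began 60 bases before the start in Nop2 and 20 bases before it in Utp18. The share was 4 of 26 promoters (15.4%) for genes that rose in low arginine, in Nol11, Nop2, Utp18 and Utp20. It was 1 of 7 (14.3%) for genes that fell, in Pes1, and 3 of 15 (20%) for genes that were not called, in Rrp7a, Utp14b and Utp4. The genes with this element therefore did not stand on a single side of the response. The letters TGATGCAA, a form of the element bound by Atf4 in the amino acid response, were searched on both strands and were in 0 of the 48 promoters, against 294 of 32851 (0.895%). Neither element contains the other. A match describes the letters in this window and says nothing of binding.

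Across the 53 genes, the standard arginine mean ran between 0.816 FPKM for Nol8 and 94.1 FPKM for Rrp1, with a median of 7.6 FPKM. In standard arginine 12 of them exceeded 20 FPKM and 15 lay under 5 FPKM. Their FPKM values summed to 839 ± 17.0 in low arginine, 729 ± 14.6 in standard arginine and 743 ± 22.1 in high arginine (SD, n = 3 each). On the log2(FPKM + 1) scale the first principal component of the 53 genes held 87.1% of their variance. The low arginine libraries scored 2.199 to 2.473 on it, and the other 6 libraries scored -1.466 to -0.9196. Over all genes tested the first component held 76.8% of the variance, and its scores were 36.35 to 39.69 in low arginine and -20.27 to -16.83 in the remaining libraries, so low arginine stood apart over the transcriptome as well.

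The median log2 change of the 53 genes in low against standard arginine was 0.22, with a range of -0.70 to 1.62, while the median of all genes tested was 0.00. By share, 52.8% of the 53 genes were called higher, against 30.3% of all genes, and 15.1% were called lower, against 31.9%. With values rescaled to TPM, which gives every library the same total, 62.3% were called higher, against 39.4% of all genes, and 11.3% lower, against 24.5%. In 31 of them every low arginine library lay above every standard library, and in 8 every one lay below, against 32% and 33.4% of all genes tested. The 4 genes Nol3, Nol4, Nol4l and Nol7 carry the name but were not assigned a role in ribosome assembly here. Without them the counts were 26 higher, 8 lower and 15 not called of 49.

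**Figure D1:**
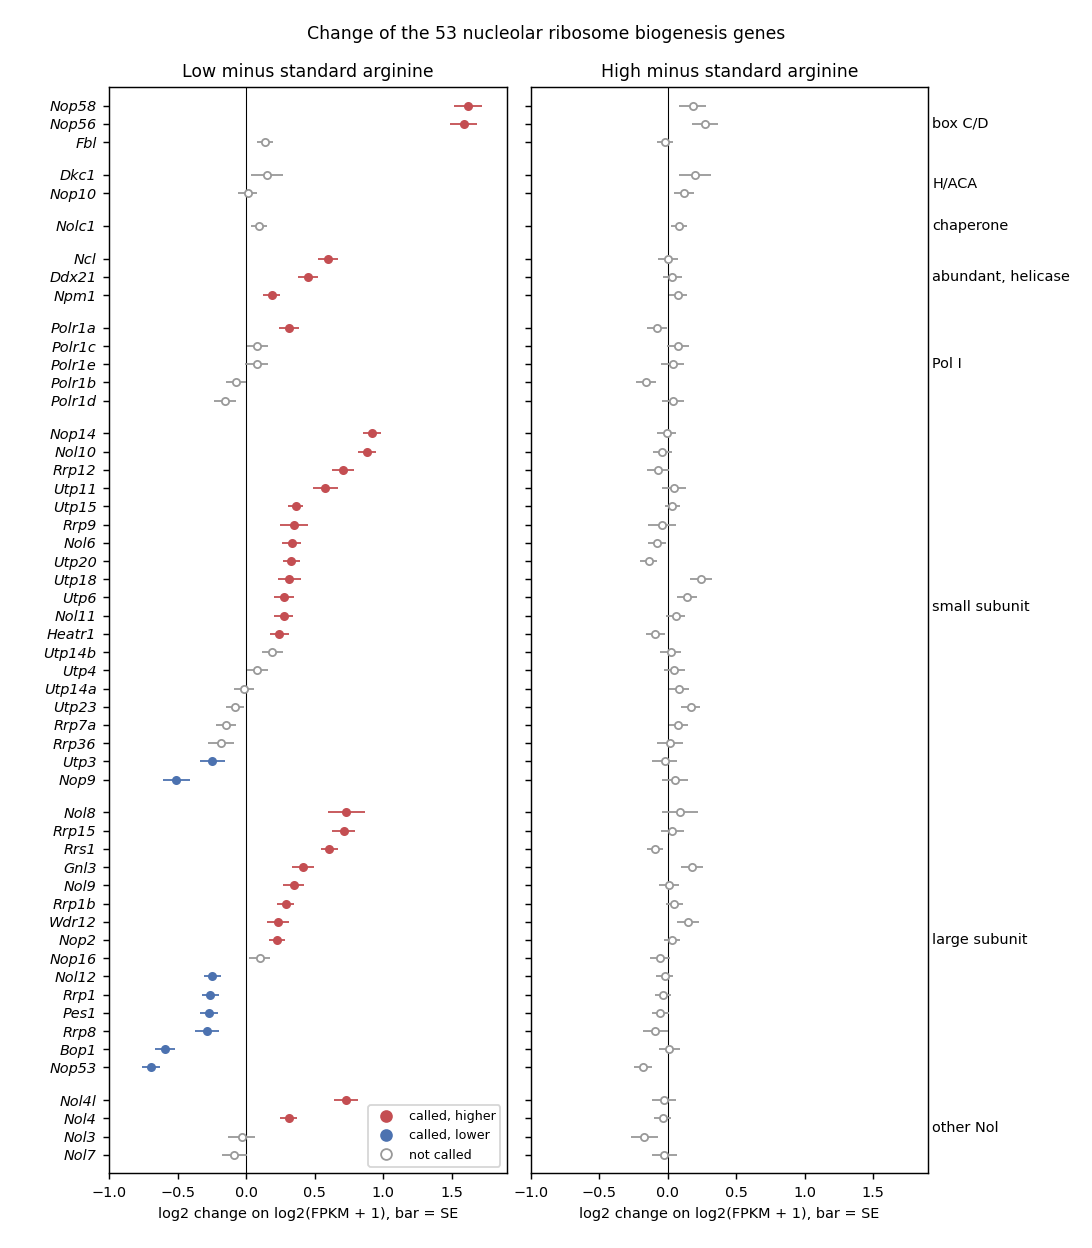
Log2 change of each of the 53 genes on the log2(FPKM + 1) scale, grouped by role, in low against standard arginine (left) and high against standard arginine (right), with bars for the SE from limma and filled points for called genes. On the left Nop58 and Nop56 lie furthest to the right at 1.62 and 1.58 and Nop53 furthest to the left at -0.70, and on the right no point is filled.

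The box C/D snoRNP methylates ribosomal RNA, with Fbl (fibrillarin) as its methyltransferase and Nop56 and Nop58 as the paired scaffold proteins that hold the guide RNA. Nop58 (ENSMUSG00000026020, chr1:59684971-59719044 in GRCm38) had 17.6, 15.6 and 16.8 FPKM in low, 4.41, 4.25 and 5.69 FPKM in standard and 4.86, 5.98 and 5.78 FPKM in high arginine. Nop56 (ENSMUSG00000027405, chr2:130274430-130279313) had 77.3, 87.3 and 81.3 FPKM in low, 25.7, 27.7 and 26.5 FPKM in standard and 27.2, 36.2 and 34.3 FPKM in high arginine. For both genes, each low arginine library was above every other library. High arginine libraries 2 and 3 of Nop56 also lay above its standard libraries. Nop58 rose by a log2 change of 1.62 (SE 0.10, adjusted p = 3.35e-07), and its mean FPKM was 3.48-fold that of standard arginine. Nop56 rose by 1.58 (SE 0.10, adjusted p = 2.71e-07), with a mean 3.08-fold that of standard arginine. By size these rises ranked 52 and 57 among the 3723 genes that rose. They were the only 2 of the 53 genes with a rise of at least 1 on the log2(FPKM + 1) scale. Of all genes tested, 1.92% rose by that much. The log2(FPKM + 1) scale understates changes of low genes, and by the means Nol8, Nol4l and Nol10 stood at 2.51-fold, 2.07-fold and 2-fold. In at least 1 alternative analysis Nol4l, Nol10, Nop14 and Nol8 also reached 1 or more, at most 1.06, 1.07, 1.075 and 1.29.

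Fbl did not pass the test beside its partners. Its levels were 24.2, 24.3 and 24.8 FPKM in low, 22.3, 23.2 and 20.8 FPKM in standard and 22.5, 22.4 and 20.5 FPKM in high arginine. The low arginine libraries lay above the standard ones by a narrow gap, and the log2 difference was 0.14 (SE 0.06), with an adjusted p of 0.0623. Fbl was called with other scalings, at 0.22 under quantile normalization (adjusted p = 0.0033) and 0.27 with TPM (adjusted p = 0.000732), and also with a replicate block (adjusted p = 0.0347) and without standard library 2 (adjusted p = 0.0448). Within a library, the ratio of Nop56 to Fbl was 3.35 ± 0.211 in low arginine, 1.21 ± 0.0615 in standard arginine and 1.5 ± 0.254 in high arginine. The ratio of Nop58 to Fbl was 0.682 ± 0.043 in low arginine, 0.218 ± 0.0483 in standard arginine and 0.255 ± 0.0348 in high arginine (SD, n = 3 each). In both ratios low and standard arginine did not overlap, at the smallest two-sided exact permutation p that 3 against 3 libraries can give, 0.1. The ratio of Nop58 to Nop56 was 0.204 ± 0.0249 in low arginine and 0.180 ± 0.0313 in standard arginine, and those groups overlapped (exact permutation p = 0.3).

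**Figure D2:**
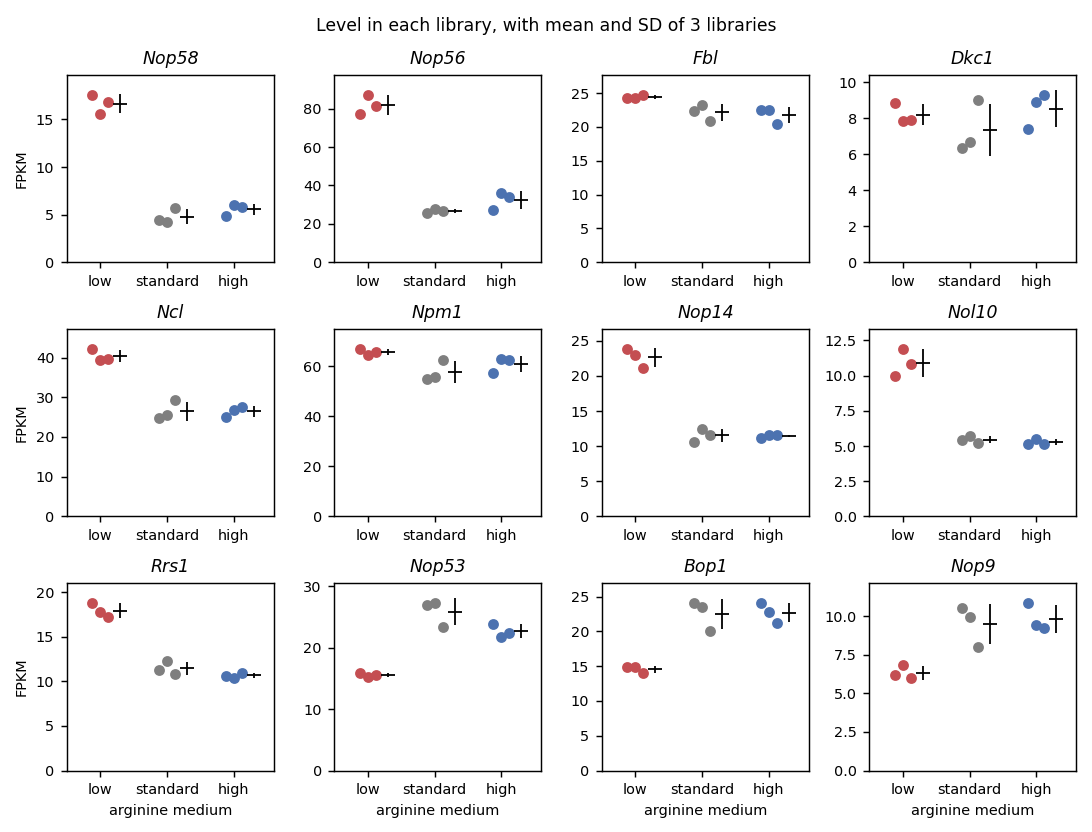
FPKM of 12 genes (vertical axes, each from 0) in each library of low, standard and high arginine. Points are libraries, and the crosses beside them give the mean and SD of 3 libraries. Nop56 and Nop58 stand at 77.3 and 15.6 FPKM or more in low arginine, against no more than 36.2 and 5.98 FPKM in the other 6 libraries, and Bop1 and Nop53 lie lower in low arginine.

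The box H/ACA snoRNP pseudouridylates ribosomal RNA. Its pseudouridine synthase is Dkc1 (dyskerin), and Nop10 is a small core protein beside it. Dkc1 had 8.88, 7.85 and 7.92 FPKM in low, 6.33, 6.71 and 9.03 FPKM in standard and 7.4, 8.93 and 9.32 FPKM in high arginine, and Nop10 had 47.8, 58.4 and 51.6 FPKM in low, 51.2, 52.8 and 52.1 FPKM in standard and 57, 58.7 and 54.2 FPKM in high arginine. In both, low and standard arginine overlapped. The log2 differences were 0.15 (SE 0.12, adjusted p = 0.279) for Dkc1 and 0.01 (SE 0.07, adjusted p = 0.908) for Nop10. Nolc1, a chaperone of both snoRNP classes, had 21.1, 21.4 and 20.8 FPKM in low, 19.2, 20.9 and 19.2 FPKM in standard and 19.9, 21.7 and 21.3 FPKM in high arginine. Its difference of 0.09 (SE 0.06, adjusted p = 0.169) also missed the threshold, so of these 3 genes none was called. Nolc1 was called with other scalings, at 0.15 under quantile normalization (adjusted p = 0.0273) and 0.22 with TPM (adjusted p = 0.00326). Dkc1 was called with array weights, at 0.22 (adjusted p = 0.0403), and without standard library 3, at 0.29 (adjusted p = 0.0208). The 95% intervals reached at most 0.41 for Dkc1, 0.17 for Nop10 and 0.22 for Nolc1 on the log2 scale.

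Of the abundant nucleolar proteins, Ncl (nucleolin) binds precursor RNA, Npm1 (nucleophosmin) is a chaperone of the outer nucleolar layer, and Ddx21 is a helicase of ribosomal DNA transcription and RNA processing. Ncl had 42.2, 39.4 and 39.6 FPKM in low, 24.7, 25.5 and 29.2 FPKM in standard and 25, 26.8 and 27.5 FPKM in high arginine. Ddx21 had 22.1, 23.2 and 22.5 FPKM in low, 15.5, 15.5 and 18 FPKM in standard and 15.4, 17.2 and 17.5 FPKM in high arginine. Npm1 had 67, 64.4 and 65.8 FPKM in low, 54.8, 55.9 and 62.7 FPKM in standard and 57.3, 62.8 and 62.5 FPKM in high arginine. In all 3 the low arginine libraries lay above the standard ones, with a wide gap for Ncl and a narrow one for Npm1. All 3 rose, by 0.60 for Ncl (SE 0.07, adjusted p = 3.69e-05), 0.45 for Ddx21 (SE 0.07, adjusted p = 0.000283) and 0.18 for Npm1 (SE 0.06, adjusted p = 0.0277). The call of Npm1 was lost when any of low arginine library 1 or 3 or standard library 1 or 2 was left out, with an adjusted p of 0.0679 to 0.102.

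Polr1a is the largest subunit of RNA polymerase I and Polr1b the second largest, and together they form its catalytic centre. Polr1a had 4.18, 4.07 and 3.57 FPKM in low, 3.11, 2.96 and 2.84 FPKM in standard and 3, 2.71 and 2.57 FPKM in high arginine. Polr1b had 2.75, 2.83 and 2.38 FPKM in low, 2.98, 2.82 and 2.73 FPKM in standard and 2.69, 2.34 and 2.31 FPKM in high arginine. Polr1a was higher in every low arginine library than in any other library, whereas for Polr1b low and standard arginine overlapped. Polr1a rose by 0.31 (SE 0.07, adjusted p = 0.00315), and Polr1b differed by -0.08 (SE 0.07, adjusted p = 0.401). The ratio of Polr1a to Polr1b was 1.49 ± 0.0422 in low arginine, 1.05 ± 0.00339 in standard arginine and 1.13 ± 0.0267 in high arginine (SD, n = 3 each). Low and standard arginine did not overlap in it, and neither did high and standard arginine (each exact permutation p = 0.1, the smallest possible).

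The other 3 subunits are Polr1c and Polr1d, which RNA polymerase III shares, and Polr1e, which belongs to polymerase I alone. Polr1d had 17.1, 19.4 and 19.3 FPKM in low, 20.9, 21.8 and 19.7 FPKM in standard and 19.5, 21 and 23.9 FPKM in high arginine. Polr1c had 21.2, 22.6 and 22.7 FPKM in low, 21.7, 22.7 and 18.4 FPKM in standard and 23.5, 21.7 and 21 FPKM in high arginine. For Polr1d the low arginine libraries all lay under the standard ones, yet the difference of -0.15 (SE 0.08, adjusted p = 0.116) was not called, and for Polr1c the groups overlapped at a difference of 0.08 (SE 0.08, adjusted p = 0.387). Polr1e, at 2.34 to 3.03 FPKM over all 9 libraries, had a difference of 0.08. Polr1a was thus the only subunit of these 5 that passed the test, although Polr1c was called with TPM, at 0.21 (adjusted p = 0.0174).

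The small subunit group holds 20 genes, mostly of the processome, the large particle that forms on the front part of the precursor RNA around the U3 snoRNP. Of these, 12 rose (60%, against 30.3% of all genes tested) and 2 fell (10%, against 31.9%). The other 6 did not pass the test, and the median log2 change of the group was 0.27. The summed level of the 20 genes was 201 ± 5.5 FPKM in low arginine, 170 ± 2.92 FPKM in standard arginine and 174 ± 6.73 FPKM in high arginine (SD, n = 3 each).

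Nop14, a processome component, had 23.9, 22.9 and 21.1 FPKM in low, 10.6, 12.4 and 11.6 FPKM in standard and 11.2, 11.6 and 11.6 FPKM in high arginine. Nol10, the relative of yeast Enp2, had 9.96, 11.9 and 10.8 FPKM in low, 5.41, 5.7 and 5.23 FPKM in standard and 5.14, 5.51 and 5.17 FPKM in high arginine. Rrp12, known from yeast for the export of precursors of the small subunit, had 12.8, 12.3 and 10.2 FPKM in low, 7.09, 6.95 and 6.31 FPKM in standard and 6.69, 6.33 and 6.17 FPKM in high arginine. In each of them low arginine lay clear of the other libraries, at 1.96-fold for Nop14, 2-fold for Nol10 and 1.73-fold for Rrp12 by the means of low over standard arginine. The log2 changes were 0.92 for Nop14 (SE 0.07, adjusted p = 1.08e-06), 0.88 for Nol10 (SE 0.07, adjusted p = 1.62e-06) and 0.71 for Rrp12 (SE 0.08, adjusted p = 2.89e-05). Utp11, also of the processome, had 8.98, 9.79 and 10.04 FPKM in low, 5.18, 6.31 and 6.94 FPKM in standard and 5.94, 6.39 and 6.69 FPKM in high arginine, and rose by 0.58 (SE 0.09, adjusted p = 0.000239).

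The remaining 8 that rose were Utp15, Nol11 and Heatr1, which belong to the subcomplex that links the processome to polymerase I transcription, Utp6 and Utp18 of a second subcomplex, the U3 protein Rrp9, Nol6 and Utp20. Their log2 changes ran between 0.24 for Heatr1 and 0.36 for Utp15. Those that fell were Nop9, a PUF-repeat RNA-binding protein, and Utp3. Nop9 had 6 to 6.83 FPKM in low, 8.01 to 10.5 FPKM in standard and 9.21 to 10.9 FPKM in high arginine, with every low arginine library below the rest, and fell by a log2 change of -0.51 (SE 0.10, adjusted p = 0.000911). Utp3, at 25.5 to 31.4 FPKM in low arginine against 34 to 35 FPKM in standard arginine, had a change of -0.25 (SE 0.09, adjusted p = 0.0359), and its call was lost in 8 of the alternative analyses (adjusted p = 0.0519 to 0.253), among them those without low arginine library 1 or 2 and without any of the 3 standard libraries. Utp4, Utp14a, Utp14b, Utp23, Rrp7a and Rrp36 were not called, at differences of -0.19 to 0.19, but 4 of them were called in some alternative analyses. Utp14b was called in 4 of these, with TPM (0.34, adjusted p = 0.0167), a replicate block (adjusted p = 0.03), voom weights (adjusted p = 0.027) and without standard library 1 (adjusted p = 0.0446). Rrp7a was called as lower without standard library 3 (-0.22, adjusted p = 0.00976) and with array weights (adjusted p = 0.00627), Rrp36 as lower with a replicate block (adjusted p = 0.0321) and Utp4 as higher with array weights (adjusted p = 0.0476). Within 1 subcomplex Utp4 stood at 0.08 and Utp15 at 0.36, and the difference between them was not tested.

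The large subunit group holds 15 genes, of which 8 rose (53.3%), Nol8 among them, and 6 fell (40%). Without Nol8, whose rise is a description only, 7 of 14 rose (50%) and 6 fell (42.9%). Of all genes tested, 30.3% rose and 31.9% fell. Only Nop16 did not pass the test (called with TPM, at 0.22 and an adjusted p of 0.0395). In contrast to the small subunit group, the summed level of the 15 genes was 205 ± 3.18 FPKM in low arginine, 227 ± 14.1 FPKM in standard arginine and 221 ± 3.93 FPKM in high arginine (SD, n = 3 each). In that sum every low arginine library lay below every standard library. Much of the gap came from Rrp1, the most abundant of the group. Its mean dropped from 94.1 FPKM with the standard medium to 78.1 FPKM when arginine was low. Under quantile normalization the log2 change of Rrp1 was -0.07 (limma adjusted p = 0.16). TPM moved the median log2 change of all genes to 0.115. The sum was not computed under either scaling, so its fall is described for the FPKM values alone.

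Rrs1 helps to bring the small 5S RNA particle into the large subunit precursor. It had 18.8, 17.8 and 17.2 FPKM in low, 11.2, 12.3 and 10.8 FPKM in standard and 10.6, 10.4 and 10.9 FPKM in high arginine. Rrp15 had 4.28, 5.02 and 4.34 FPKM in low, 2.18, 2.49 and 2.49 FPKM in standard and 2.15, 2.62 and 2.65 FPKM in high arginine. Nol8, the least abundant of the 53 genes, had 1.61 to 2.77 FPKM in low, 0.671 to 0.982 FPKM in standard and 0.883 to 0.978 FPKM in high arginine. All 3 genes lay higher in each low arginine library than in any other, although low arginine library 1 alone carried the top value of Nol8. The log2 changes were 0.61 for Rrs1 (SE 0.06, adjusted p = 1.02e-05) and 0.71 for Rrp15 (SE 0.08, adjusted p = 3.10e-05), and the difference of Nol8 was 0.73, given with no test. Gnl3 (nucleostemin), a GTP-binding protein of proliferating cells, had 6.76, 5.86 and 6.53 FPKM in low, 4.55, 4.05 and 5.04 FPKM in standard and 4.82, 5.54 and 5.4 FPKM in high arginine, and rose by 0.42 (SE 0.08, adjusted p = 0.00112). Smaller rises were found for Nol9, the kinase that acts on the ends of cut precursor RNA (0.34), for Rrp1b (0.29) and for the RNA methyltransferase Nop2 (0.22).

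Pes1, Bop1 and Wdr12 form a stable complex, PeBoW, that is needed to process the precursor of the large subunit RNAs. Bop1 had 14.9, 14.8 and 14 FPKM in low, 24.1, 23.5 and 20.1 FPKM in standard and 24.1, 22.8 and 21.3 FPKM in high arginine. Pes1 had 12.9, 13.5 and 12.1 FPKM in low, 15.9, 16.8 and 14.4 FPKM in standard and 14.9, 15.3 and 15.1 FPKM in high arginine. Wdr12 had 2.1, 2.51 and 2.33 FPKM in low, 1.79, 1.66 and 2.01 FPKM in standard and 1.96, 2.18 and 2.23 FPKM in high arginine. The 3 partners did not move together, since low arginine lay below standard arginine for Bop1 and Pes1 and above it for Wdr12. Bop1 fell by a log2 change of -0.59 (SE 0.07, adjusted p = 5.50e-05) and Pes1 by one of -0.27 (SE 0.06, adjusted p = 0.00377). Wdr12 rose by 0.23 (SE 0.08, adjusted p = 0.0249), a call lost with no filter on low values and without low arginine library 2 or 3 or standard library 1 or 2 (adjusted p = 0.0622 to 0.094). The ratio of Wdr12 to Pes1 was 0.180 ± 0.0155 in low arginine, 0.117 ± 0.0205 in standard arginine and 0.141 ± 0.00816 in high arginine. The ratio of Bop1 to Pes1 was 1.14 ± 0.0297 in low arginine, 1.43 ± 0.0678 in standard arginine and 1.51 ± 0.106 in high arginine (SD, n = 3 each). Low and standard arginine did not overlap in either ratio, each at the smallest exact permutation p of 0.1. For Wdr12 to Pes1 this followed from the levels above, where the libraries of both genes were already apart in opposite directions.

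**Figure D3:**
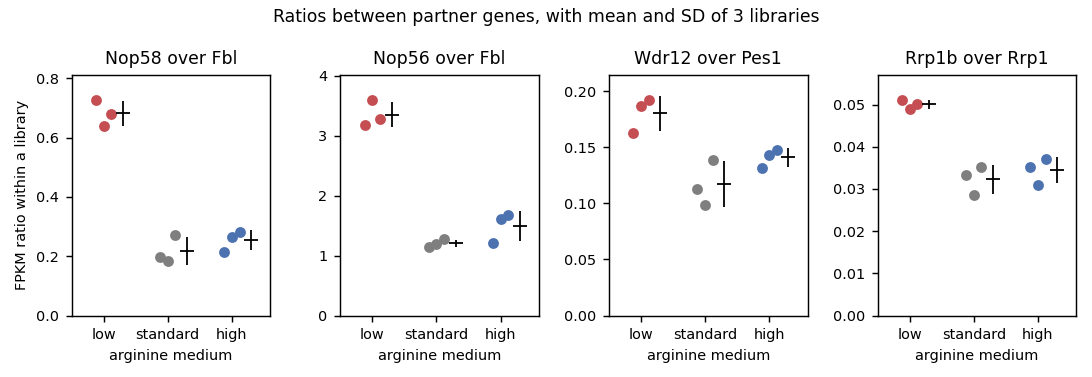
Ratio of the FPKM of 2 genes within each library, for 4 pairs that share a complex or a family, in low, standard and high arginine. Points are libraries, the crosses beside them give the mean and SD of 3 libraries, and in all 4 pairs the low arginine libraries lie above all others.

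The largest fall among the 53 genes was that of Nop53, a late factor known from yeast to bring the RNA exosome to the large subunit precursor. It had 15.8, 15.2 and 15.6 FPKM in low, 26.9, 27.3 and 23.4 FPKM in standard and 23.9, 21.8 and 22.5 FPKM in high arginine. Every low arginine library was under every other one, and the log2 change was -0.70 (SE 0.07, adjusted p = 7.46e-06). Rrp1, the most abundant of the 53 genes in standard arginine, averaged 78.1 ± 0.967 FPKM in low arginine and 94.1 ± 7.35 FPKM in standard arginine, a change of -0.26 (SE 0.06, adjusted p = 0.00359). Under quantile normalization the change of Rrp1 was -0.07 with an adjusted p of 0.16. Its paralog Rrp1b moved the other way, and the ratio of Rrp1b to Rrp1 was 0.05 ± 0.00109 in low arginine and 0.0323 ± 0.00339 in standard arginine (SD, n = 3 each). The others that fell were Nol12, at -0.25, and the methyltransferase Rrp8, at -0.29 (adjusted p = 0.0165), whose call was lost in 5 of the alternative analyses (adjusted p = 0.0542 to 0.0959), among them those without low arginine library 1 or standard library 2.

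Of the 4 Nol genes not assigned a role in ribosome assembly here, Nol4l had 3.45, 3.15 and 3.01 FPKM in low, 1.46, 1.83 and 1.36 FPKM in standard and 1.6, 1.51 and 1.37 FPKM in high arginine, and Nol4 had 7.94, 7.9 and 7.54 FPKM in low, 6.11, 5.62 and 6.58 FPKM in standard and 5.85, 5.94 and 5.94 FPKM in high arginine. Both were higher in every low arginine library than in any other, and rose by 0.73 (SE 0.09, adjusted p = 3.69e-05) and 0.31 (SE 0.06, adjusted p = 0.0011). Nol3, a repressor of apoptosis, had 6.48, 5.86 and 5.55 FPKM in low, 6.71, 6.82 and 4.97 FPKM in standard and 5.17, 5.54 and 5.26 FPKM in high arginine. Nol7 had 29.1, 34.4 and 34.1 FPKM in low, 33.3, 33.9 and 36.7 FPKM in standard and 29.7, 36.3 and 36.6 FPKM in high arginine. In these last 2 low and standard arginine overlapped, at differences of -0.03 (adjusted p = 0.782) and -0.09 (adjusted p = 0.419).

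Small nucleolar RNA genes lie inside 6 of these genes, namely Nop56, Nop58, Ncl, Gnl3, Dkc1 and Nop53. These 6 hold 17 annotated snoRNA genes, whose own levels never exceeded a mean of 0.299 FPKM. Of the 6, 4 rose (66.7%), Nop53 fell (16.7%) and Dkc1 was not called, with a median log2 change of 0.51. The other 47 had 24 rises (51.1%), 7 falls (14.9%) and a median of 0.19. Of all genes tested, 30.3% rose and 31.9% fell. The 4 include Nop58 and Nop56, the largest rises of the 53 genes, and the part of the snoRNA genes was not tested. Separately, 11 of the 53 genes overlap another expressed gene, 10 of them on the opposite strand, and the labels do not tell whether reads were counted by strand. Among those 11, 4 rose (36.4%), Bop1 fell (9.09%) and 6 were not called. Among the 42 with no such neighbour 24 rose (57.1%) and 7 fell (16.7%). Idh3b, which overlaps Nop56, averaged 20.4 ± 0.757 FPKM in low arginine and 25.4 ± 1.3 FPKM in standard arginine and so moved against it. Mroh1, which overlaps Bop1, had a log2 change of -0.55, close to that of Bop1. Reads of such pairs cannot be told apart without strand.

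**Figure D4:**
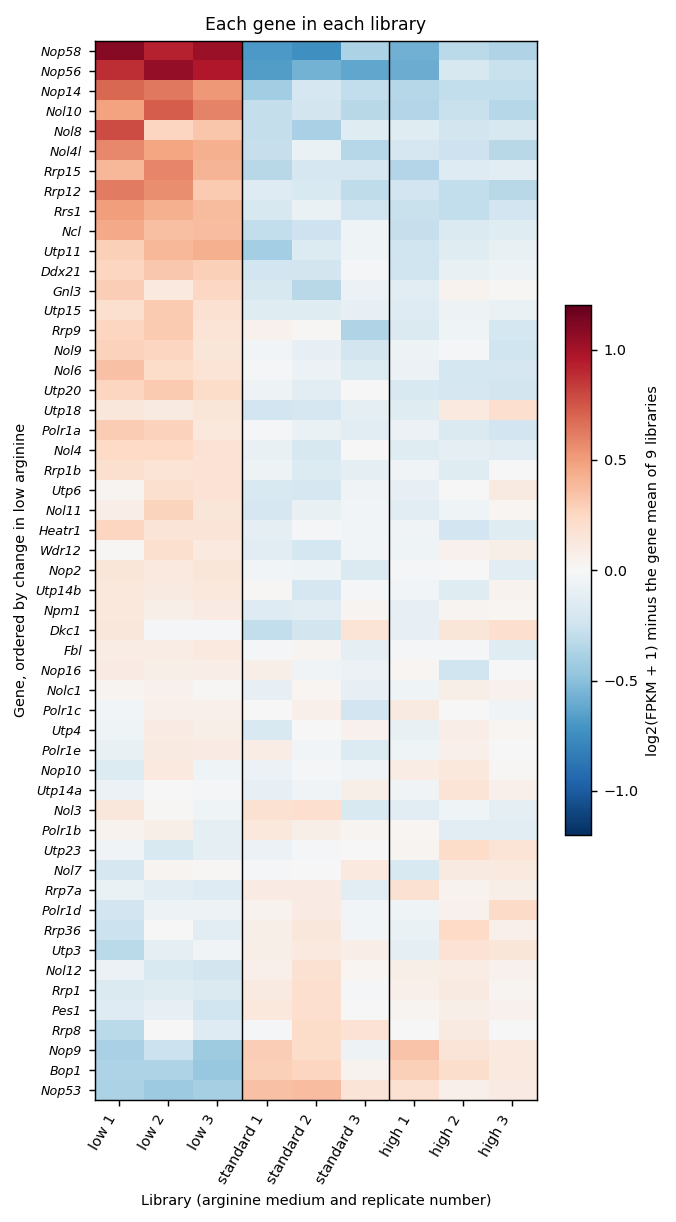
Level of each of the 53 genes in each of the 9 libraries as the difference from its own mean over all libraries, on the log2(FPKM + 1) scale, with 3 columns each for low, standard and high arginine and genes ordered by their change in low against standard arginine. The low arginine columns stand out in both directions, with Nop58 at the top (log2 change 1.62) and Nop53 at the bottom (-0.70), while the standard and high arginine columns resemble each other.

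Arginine in excess gave no call among these genes. In high against standard arginine 0 of the 53 passed the test in limma, where 0.309% of all genes tested did. At an unadjusted p under 0.05 there were 5 of 53 (9.43%), against 14.3% of all genes, and a fit with voom weights on rebuilt reads also called 0. A fit with a weight for each library called 6 higher (11.3%) and 1 lower (1.89%), where it called 5.8% of all genes higher and 4.96% lower. The median log2 difference was 0.02, the same over all genes was 0.01, and single genes ran between -0.18 and 0.27. No 95% interval of the 53 reached beyond 0.48 in either direction.

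The 5 genes were Nop56, Utp18 and Utp23 with a positive difference and Nop53 and Utp20 with a negative one. For Nop56 the difference was 0.27 (SE 0.10, adjusted p = 0.244), and high arginine library 1 at 27.2 FPKM lay within the range of the standard libraries. Utp18 had 9.58 to 12.4 FPKM in high arginine, against 8.96 to 9.77 FPKM in standard arginine. High arginine libraries 2 and 3 lay above the standard ones and library 1 did not, at a difference of 0.24 (SE 0.08, adjusted p = 0.227). Utp23 and Nop10 were higher in every high arginine library than in any standard one, and Polr1b and Utp20 lower. These 2 of 53 on each side compare with 10.4% of all genes above and 8.14% below.

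Between the extremes, high against low arginine, 8 of the 53 genes were higher, 25 lower and 20 not called, where 61.5% of all genes tested were called, 32.3% higher and 29.2% lower. Nol8, which passed the filter only through its low arginine libraries, is among the 25 as a description only. Without it 8 of 52 genes were higher (15.4%) and 24 lower (46.2%). In 10 of the 53 every high arginine library lay above every low arginine library and in 29 below, against 35.3% and 33.1% of all genes tested. With TPM, which moved the median of all genes to -0.104 in this comparison, 4 of the 53 were higher (7.55%) and 31 lower (58.5%), where 25.2% of all genes were higher and 38.5% lower. This comparison uses the same low arginine libraries as the one above, so its counts are not separate evidence. The box C/D proteins were again at one end, with log2 changes of -1.44 for Nop58 and -1.32 for Nop56, and Fbl passed the test here at -0.16 (SE 0.06, adjusted p = 0.0366). That call was lost without any one of the low arginine libraries or without high arginine library 2 or 3 (adjusted p = 0.0531 to 0.149). In the other direction Bop1, Nop9 and Nop53 had the largest changes, at 0.60, 0.56 and 0.52. Utp23 and Rrp7a were called higher in this comparison, at 0.25 and 0.22, without a call in low against standard arginine. The call of Rrp7a was lost with TPM and without low arginine library 2 or 3 or high arginine library 1 (adjusted p = 0.0567 to 0.156), and that of Utp23 with TPM (adjusted p = 0.092). Of the genes called lower, Gnl3 and Nol11 each lost the call in 4 alternative analyses (adjusted p = 0.0521 to 0.0929), among them those without low arginine library 1 or 3 or high arginine library 1 for Gnl3 and without low arginine library 2 or high arginine library 1 or 2 for Nol11. Nop2 lost it without high arginine library 3 (adjusted p = 0.0735). Of those called higher, Pes1 lost the call with TPM and without low arginine library 3 (adjusted p = 0.057 to 0.106), Nol12 with TPM (adjusted p = 0.0905) and Rrp1 under quantile normalization, at 0.02 (adjusted p = 0.75). Wdr12 and Npm1 had differences of -0.08 and -0.11 that missed the threshold. Npm1 was called as lower under quantile normalization, at -0.27 (adjusted p = 0.00893), and with TPM, at -0.24 (adjusted p = 0.0202).

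**Figure D5:**
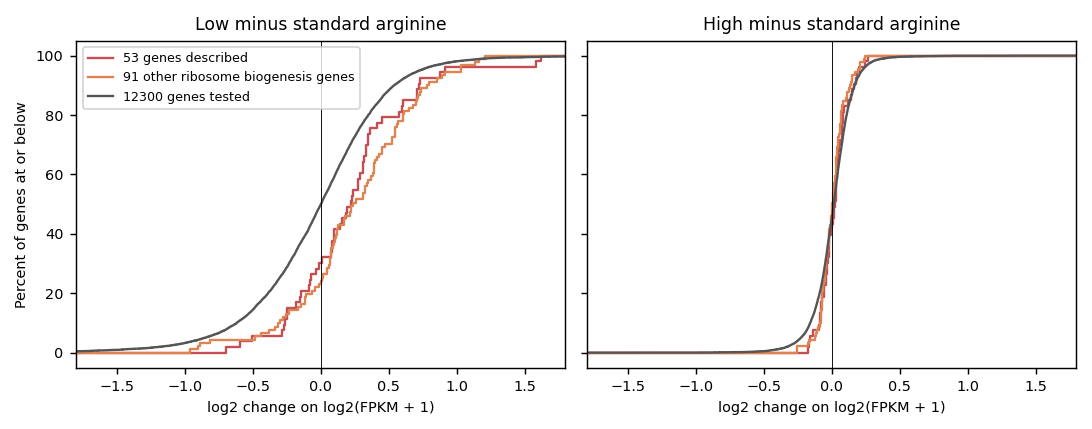
Cumulative share of genes by log2 change on the log2(FPKM + 1) scale, for the 53 genes, the 91 other ribosome biogenesis genes and all 12300 genes tested, in low against standard and in high against standard arginine. In low arginine both ribosome biogenesis curves lie to the right of all genes, with medians of 0.22 and 0.24 against 0.00, and in high arginine the curves nearly coincide.

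Other genes of the same pathway were taken from a list of 95 names, written from textbook knowledge of ribosome assembly. Earlier results of these data were known when the list was written, so it is not separate evidence. Of its 92 names in the table, 91 were tested. In low against standard arginine 49 rose (53.85%, against 30.3% of all genes tested), 13 fell (14.3%, against 31.9%) and 29 were not called. The median log2 change was 0.24, and 1 of the rises, Tma16, belongs to a gene that passed the filter only through its low arginine libraries. Without Tma16, 48 of 90 rose (53.3%) and 13 fell (14.4%). The largest rises of genes with at least 5 FPKM were those of Wdr43, a processome factor, Ubtf, the architectural transcription factor of RNA polymerase I, and Gar1, a core protein of the box H/ACA snoRNP. Wdr43 averaged 20.3 ± 1.11 FPKM in low arginine and 8.19 ± 0.502 FPKM in standard arginine (log2 change 1.21). Ubtf averaged 55.3 ± 2.12 FPKM in low arginine and 24.2 ± 0.706 FPKM in standard arginine (1.16). Gar1 averaged 30.9 ± 0.896 FPKM in low arginine and 14.6 ± 1.35 FPKM in standard arginine (1.03; SD, n = 3 each). Gar1 therefore rose while Dkc1, Nop10 and the fourth core protein Nhp2 (0.11, adjusted p = 0.132) did not pass the test, though the difference between these partners was not tested. Rrn3, which joins polymerase I to its promoter factors, had a difference of 0.07 (adjusted p = 0.358). The largest falls were those of the U3 protein Imp3, which averaged 29.4 ± 1.39 FPKM in low arginine and 58.3 ± 2.25 FPKM in standard arginine (-0.96), the helicase Ddx49 (-0.90) and Wdr55 (-0.89). In high against standard arginine 0 of the 91 were called, against 0.309% of all genes tested. In high against low arginine 12 were higher (13.2%, against 32.3%) and 51 lower (56%, against 29.2%). Without Tma16, 12 of 90 were higher (13.3%) and 50 lower (55.6%).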

How the data were processed

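RNA of MIN6 cells in low, standard and high arginine was sequenced in 9 libraries, 3 per medium, with groups and replicate numbers taken from the labels. Per the labels' protocols, total RNA went into a strand-marking library kit. The submitters' processing notes list HISAT2 2.0.5, featureCounts 1.5.0-p3 and CASAVA 1.8, without saying whether reads were counted by strand. The authors deposited 1 table of FPKM per gene with the gene length used, per the file headers. mm9 is the build in those notes, but of 54409 gene IDs shared with GENCODE M21, 98.33% have its GRCm38 start and end in the table, as do 52 of the 53 genes described, so coordinates are given in GRCm38.

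The 53 genes, their roles and the other ribosome biogenesis list were chosen with earlier results of these data known. Multiplied by gene length, 100% of the FPKM values above 0 were whole multiples of 1 read, to within 0.01 reads, so reads per library could be rebuilt: 21550637 to 26300872 in genes. The library size behind the FPKM was 0.9621 to 1.0767 times these reads, so a scale factor was already in the deposited values. Reads were used for depth, for comparing replicates and for voom weights only, since FPKM is no count. Intervals cover the spread between libraries. No pair of replicates agreed within sampling noise (chi-square divided by its degrees of freedom was 2.586 to 12.6).

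The 12300 genes that reached 1 FPKM in 3 or more libraries entered limma 3.58.1 (R 4.3.3) as log2(FPKM + 1), in 1 fit of all 9 libraries with group as the only term and a variance prior that follows mean expression. This scale understates changes of low genes. Tests were two-sided, with Benjamini-Hochberg adjustment over the 12300 genes in each comparison and a threshold of 0.05. The code was tested on simulated data. Within-library ratios of 2 genes, 9 in all, were compared by two-sided exact permutation tests; their Benjamini-Hochberg adjusted p in low against standard arginine was at least 0.1125. Values per library were given for up to 4 genes of each role with the smallest p in low against standard arginine and for a set fixed by name. Of the other list, those named are the 3 largest rises and falls with a mean of at least 5 FPKM, with Ubtf, Rrn3, Nhp2 and Gar1. Alternatives were a pseudocount of 0.1, no filter, a mean FPKM of at least 5, quantile normalization, TPM, only the 2 groups compared, a replicate block, array weights, voom weights, and each library left out. The table had 0 unused columns of sample values.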

Additional observations from a re-analysis of the deposited data

How the results depend on the processing

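No result for the 53 genes changed sign with its call under any alternative run. In low against standard arginine, 31 of the 36 genes called kept their call under every alternative in which they were tested, and the exceptions were Npm1, Rrp1, Rrp8, Utp3 and Wdr12. In high against low arginine 24 of 33 did, and the exceptions were Fbl, Gnl3, Nol11, Nol12, Nop2, Pes1, Rrp1, Rrp7a and Utp23. In the same comparison Nol3, Nolc1, Nop10, Nop16, Npm1, Polr1d, Rrp36, Rrp8, Utp14b, Utp3 and Utp6 were called in at least 1 alternative and not in the analysis reported. The filter at a mean of 5 FPKM tested 40 of the 53 genes and 7426 in all, and left out 7 of the 31 and 7 of the 24. Over alternatives the count of rises ran between 20 of 40 with that filter (50%, against 31.3% of all genes) and 33 of 53 with TPM (62.3%, against 39.4%). TPM moved the median of all genes to 0.115 and that of the 53 genes to 0.354. The filter at 5 FPKM left 29 rises in the other ribosome biogenesis list and 2328 over all genes in low against standard arginine, and 29 and 2190 lower genes in high against low arginine. In high against low arginine TPM left 4 of the 53 genes higher. In high against standard arginine array weights called 6 of the 53 genes higher and 1 lower, and 4 of the other list higher. Over all genes, the 17 higher and 21 lower calls became 4 and 2 with no filter, 0 and 0 with only the 2 groups, 713 and 610 under array weights, 40 and 34 under voom weights, and 26 higher with a mean of at least 5; with 1 library left out they ran between 0 and 26 higher and between 0 and 35 lower. The cause was not tested. Replicate numbers are shared by the groups, and 6 of 9 same-number pairs had correlated deviations over 0.1 (-0.0355 to 0.243). In both other groups, 5 of 9 libraries correlated best with their own number. The labels do not say what a number stands for, so the fit reported assumed no pairing, and a replicate block was an alternative. With a replicate block, 30 of the 53 genes rose and 9 fell in low arginine (3977 and 4110 of all genes), 0 were called in high against standard arginine (46 higher and 42 lower of all genes), and 12 were higher and 26 lower in high against low arginine (4194 and 3866 of all genes). At these depths the least covered gene, Nol8, rested on 126 reads in its shallowest library.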

Other observations

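Among the 53 genes, those that rose in low arginine had a median gene length, as used for the FPKM, of 5210 bases, those that fell 3448 bases and those not called 3451 bases. Over all genes tested the same medians were 4564, 3479 and 3954 bases. The genes that fell were also the more abundant ones, with a median of 19.1 FPKM in standard arginine, against 6.12 FPKM for those that rose and 7.6 FPKM for those not called. Over all genes tested these medians were 12.1, 6.05 and 4.97 FPKM. The part of length and level in the results was not tested.

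Within the small subunit group, Nop14 and Nop9 lay further apart in low arginine than in standard arginine. The ratio of Nop14 to Nop9 was 3.58 ± 0.26 in low arginine, 1.24 ± 0.221 in standard arginine and 1.17 ± 0.121 in high arginine, and that of Rrp12 to Nop9 was 1.86 ± 0.198 in low arginine, 0.720 ± 0.0601 in standard arginine and 0.652 ± 0.0314 in high arginine (SD, n = 3 each). Low and standard arginine did not overlap in either ratio, at the smallest exact permutation p of 0.1, and both pairs were chosen after their values were seen. This followed from the levels above, since Nop14 and Rrp12 were higher and Nop9 lower in every low arginine library. For Rrp12 to Nop9, high arginine also lay below standard arginine without overlap (exact permutation p = 0.1).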
